A study of Bos taurus with 3 samples.

Results

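Genes of the contractile actin cytoskeleton were examined in cultured GREL (Gonadal Ridge Epithelial-Like) cells of the bovine fetal ovary and in fibroblasts of the adult bovine ovary. The list held 10 genes, chosen by name: the actins ACTA2 and ACTG2, the light chain kinase MYLK, the light chain MYL9, TAGLN, the calponins CNN1 and CNN2, the tropomyosins TPM1 and TPM2, and CALD1. Of these, 8 had a probe set with their single gene symbol, out of 9155 genes so named on the array, and they were read by 12 of 24016 probe sets. ACTG2 and MYL9 had no such probe set and were not analysed here. Where a gene had several probe sets, the one with the highest mean over the arrays stood for it, and the other was examined beside it.

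RNA was hybridized from 3 cultures of Bos taurus, each on 1 Affymetrix Bovine Genome array, an array that reads transcripts near their 3′ end. The fibroblasts were 1 culture with fibroblastic morphology, grown from stroma of the medulla of 1 adult ovary of an animal over 1 year of age. The GREL cells were 2 clonally enriched isolates with polygonal morphology, each a separate fetal culture, which the labels put at 130 days of gestation for both and the methods put slightly earlier for isolate 1. All 3 cultures were grown in serum-containing medium after collagenase digestion, and no other treatment is named. The adult tissue was digested at a higher collagenase concentration, and the methods name confluence at harvest for the fetal cultures only. Age, morphology, cell source and digestion differ together between the groups and cannot be told apart. The paper names clonal enrichment for the GREL isolates only, in its results, and its methods give no procedure for it. A smaller share of cells of one type and less RNA per cell cannot be told apart in such cultures.

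Smooth muscle cells, myofibroblasts and many cultured stromal cells pull on their surroundings with bundles of actin and myosin II called stress fibres. Calcium-bound calmodulin activates myosin light chain kinase, which phosphorylates the regulatory light chain and lets myosin move along actin, and a myosin phosphatase reverses this. Tropomyosins, calponins, caldesmon and transgelin lie along the actin filament and set how it is stabilised and how myosin reaches it. Many of these genes are controlled by serum response factor (SRF) with the myocardin family of co-activators, and smooth muscle alpha-actin (ACTA2) is the usual marker of myofibroblasts.

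The deposited values are log2 RMA values rounded to steps of 0.1, so 1 unit is a doubling. Groups were compared with limma over all 24016 probe sets, in which the spread came from the 2 isolates alone (1 residual degree of freedom) with the lone fibroblast culture taken to vary as much. The p-values therefore measure only the spread between these 2 cultures. In limma no probe set passed a Benjamini-Hochberg adjusted p under 0.05 (0.0% higher and 0.0% lower of 24016), while 5020 had an unadjusted p under 0.05. The one-way ANOVA of the methods also called 0, with 394 at an unadjusted p under 0.05. It could test only 20503 probe sets, those whose isolates differed after rounding. Limma with a robust prior called 571 probe sets higher (2.38%) and 618 lower (2.57%). A level of non-specific signal was taken as the 95th percentile of 45 genes of other organs on each array, which was 8.34 in the fibroblasts and 8.08 and 8.12 in GREL isolates 1 and 2. Bright probe sets of POMC, PRL, APOA1 and ALB raised it. The next brightest, GH1, was at 6.0, 6.2 and 6.8 in the fibroblasts and isolates 1 and 2, and the median of the same genes was 2.1, 1.9 and 1.9. Markers were set beside the labels. Of 11 measured epithelial genes 9 exceeded the fibroblasts in both isolates and 0 were lower in both. Of 12 genes of stromal fibroblasts 0 were higher in both and 10 were lower in both. Over all genes 41.6% were higher in both and 33.5% lower in both. KRT19, KRT7, PKP2 and LSR were listed by the paper as higher in GREL cells on these same arrays. The epithelial count is therefore not an independent check of the labels.

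The 8 measured genes did not share a direction. Myosin light chain kinase was several-fold lower in both GREL isolates, and ACTA2 and TAGLN were nearly level across the 3 cultures. The tropomyosins and calponins each split, with 1 member of the family higher and the other lower. For TPM2 and CNN2, however, the nearer isolate differed from the fibroblasts by less than the isolates differed from each other. Over 3-fold in both isolates, 0 of the 8 genes were higher and 1, MYLK, was lower. Among all 9155 genes 2.38% were over 3-fold higher and 2.38% over 3-fold lower. MYLK, ACTA2, TAGLN and TPM1 were at 10 or above in the fibroblasts. Of all 156 such genes 15 (9.62%) were over 3-fold lower in both isolates and 0 were over 3-fold higher. By any amount, 3 of the 8 genes (CNN2, TPM1 and CALD1) were higher in both isolates and 3 (MYLK, TPM2 and CNN1) were lower in both, against 41.6% and 33.5% of all genes. The fibroblast value lay outside the range of the isolates in 6 of the 8 genes and in 75.1% of all genes. At the median, the log2 difference was 0.00 for the 8 genes and 0.05 for all genes. None of the 8 passed an adjusted p under 0.05 in limma, and 1, TPM1, had an unadjusted p under 0.05, as did 23.9% of all genes. ACTA2, TAGLN and TPM1 were above the level of the genes of other organs on all 3 arrays, as were 4.62% of all genes.

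**Figure D1:**
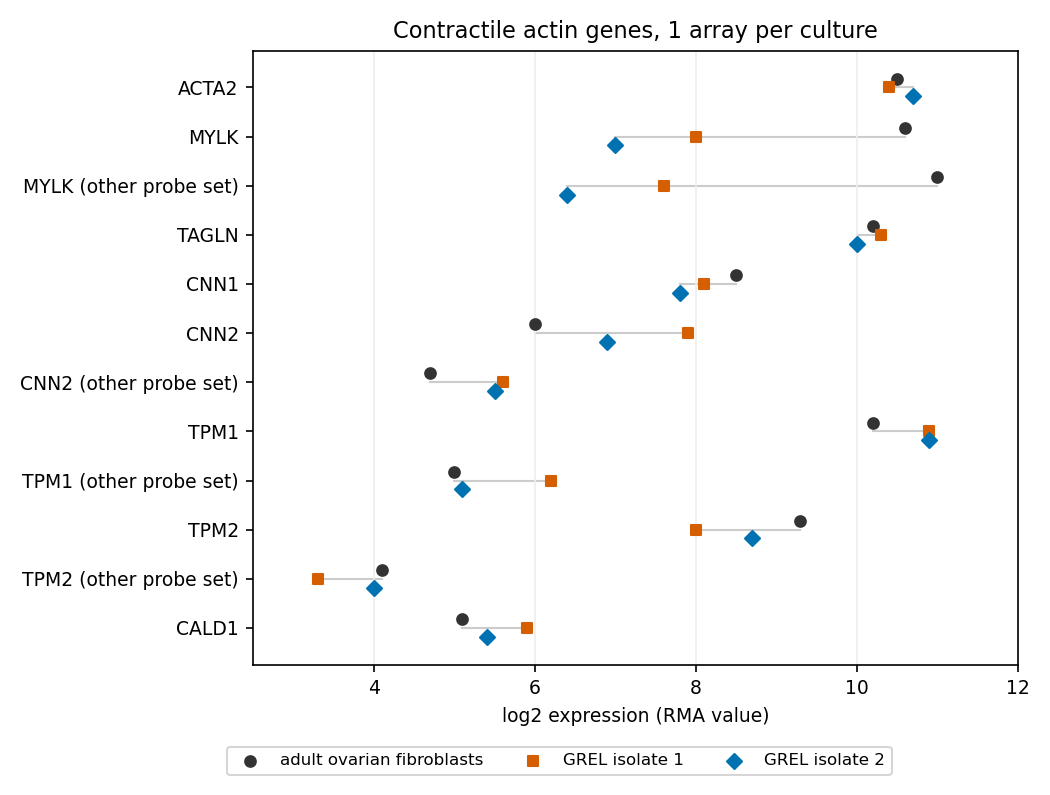
Log2 expression (horizontal axis, RMA value) of the 12 probe sets of the 8 measured genes with fibroblasts as circles, isolate 1 of the GREL cells as squares and isolate 2 as diamonds, 1 array per culture, with a grey line joining the lowest and highest value. Both probe sets of MYLK lie far to the right in the fibroblasts, at 10.6 and 11.0, while ACTA2 stays between 10.4 and 10.7 in all cultures.

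MYLK encodes the calcium- and calmodulin-dependent kinase that phosphorylates the regulatory light chain of myosin II. Its log2 value was 10.6 in the fibroblasts, 8.0 in GREL isolate 1 and 7.0 in isolate 2. It was thus 6.06-fold lower in isolate 1 and 12.1-fold lower in isolate 2. The mean log2 difference was -3.1 (standard error 0.70, 95% interval -7.12 to 0.92, adjusted p = 0.275 in limma), which placed MYLK 46 from the bottom of the 9155 genes ranked by this difference. The second probe set of MYLK ran in the same order, at 11.0 in fibroblasts against 7.6 and 6.4 in GREL isolates 1 and 2. It gave folds of 10.6 and 24.3 lower, with a mean log2 difference of -4.0 (with standard error 0.84, adjusted p = 0.261 in limma).

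The difference in MYLK between fibroblasts and isolates exceeded the gap separating the isolates, which was 1.0 at the first probe set and 1.2 at the second. The adjusted p over the other tests, filters and scalings ran from 0.221 to 0.663. Both isolates lay below the level of the genes of other organs (8.0 against 8.08 and 7.0 against 8.12), so the size of the fold is uncertain. The MYLK locus also gives rise to telokin, a short protein made from the 3′ part of the gene, and the sources used here do not say which transcripts each probe set reads.

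The log2 value of ACTA2, the alpha-actin of smooth muscle and of myofibroblasts, was 10.5 in fibroblasts, 10.4 in GREL isolate 1 and 10.7 in isolate 2. The fibroblasts lay between the isolates, and the mean difference was 0.05 (standard error 0.21, 95% interval -1.17 to 1.27, adjusted p = 0.899 in limma). TAGLN, which encodes transgelin (SM22), an actin-bundling protein of the calponin family, was at 10.2 in the fibroblasts, 10.3 in isolate 1 and 10 in isolate 2. Its mean difference was -0.05 (standard error 0.21, 95% interval -1.27 to 1.17, adjusted p = 0.899 in limma), and its groups overlapped too. Each gene was read by 1 probe set, above the level of the genes of other organs in all 3 cultures. The intervals reach past a doubling in either direction, so equal expression is not shown.

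TPM1, a tropomyosin that coils along actin filaments of muscle and stress fibres, was at 10.2 in fibroblasts against 10.9 in either isolate, which is 1.62-fold higher in each. The mean difference was 0.70 (adjusted p = 0.182 in limma). The standard error of 0.03 is too small to be read as an error, because the rounded values of the isolates were identical. It was also the only one of the 8 genes that limma with a robust prior called (adjusted p = 0.0452, among 3.22% of all genes called higher in that fit). At the second probe set of TPM1, a dim one, the fibroblasts were at 5.0 and the isolates at 6.2 and 5.1, so there the isolates were 1.1 apart.

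TPM2, the beta-tropomyosin of muscle and fibroblasts, was at 9.3 in the fibroblasts, 8.0 in GREL isolate 1 and 8.7 in isolate 2. It was 2.46-fold and 1.52-fold lower, with a mean log2 difference of -0.95 (with standard error 0.49, 95% interval -3.77 to 1.87, adjusted p = 0.405 in limma). Both isolates lay below the fibroblasts, by 1.3 and 0.6, where the isolates were 0.7 apart. The difference to the nearer isolate was thus smaller than the gap between the isolates. Its other probe set was at 4.1 in fibroblasts against 3.3 and 4.0 in GREL isolates 1 and 2, in the same order. Set against each other within each culture, which cancels any scaling of an array, the difference of TPM1 exceeded that of TPM2 by 2.0 in isolate 1 and by 1.3 in isolate 2. This contrast was not among the planned results and is made of the values above, so it is no separate support.

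The calponins bind actin and slow the actin-activated ATPase of myosin. CNN1, the calponin of differentiated smooth muscle, was at 8.5 in the fibroblasts, 8.1 in GREL isolate 1 and 7.8 in isolate 2. It was 1.32-fold and 1.62-fold lower, with a mean log2 difference of -0.55 (with standard error 0.21, 95% interval -1.77 to 0.67, adjusted p = 0.353 in limma). In isolate 2 it was below the level of the genes of other organs, as was TPM2 in isolate 1. CNN2, a calponin found in many cell types outside muscle, was at 6.0 in the fibroblasts, 7.9 in isolate 1 and 6.9 in isolate 2. It was 3.73-fold higher in isolate 1 and 1.87-fold higher in isolate 2, and the isolates were 1.0 apart (mean difference 1.4, standard error 0.70, 95% interval -2.62 to 5.42, adjusted p = 0.392 in limma). At that probe set the nearer isolate was 0.9 above the fibroblasts, which is less than the gap between the isolates. The second probe set of CNN2 was higher in both isolates as well, at 4.7 in fibroblasts against 5.6 and 5.5 in GREL isolates 1 and 2. The difference of CNN2 exceeded that of CNN1 by 2.3 in isolate 1 and by 1.6 in isolate 2, an unplanned contrast made of the same values. All 6 values of CNN2 lay below the level of the genes of other organs.

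CALD1 encodes caldesmon, which blocks the binding of myosin to actin until calcium signalling releases it. It was at 5.1 in the fibroblasts, 5.9 in GREL isolate 1 and 5.4 in isolate 2, which gives a mean log2 difference of 0.55 (with standard error 0.35, 95% interval -1.46 to 2.56, adjusted p = 0.483 in limma). The nearer isolate was 0.3 above the fibroblasts, which is less than the gap of 0.5 between the isolates. All 3 values were below a lower such level as well, the 90th percentile of those genes, at 5.8 for fibroblasts and 6.2 and 6.48 for the isolates.

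The GREL isolates differed from each other most in MYLK and CNN2, by 1.0 in each, and both genes were higher in isolate 1. A gap at least that large was found in 2.99% of all genes. TPM2 differed by 0.7, a gap reached by 9.37% of genes, and was higher in isolate 2. CALD1 differed by 0.5, and ACTA2, TAGLN and CNN1 by 0.3 each, a gap that 43.3% of genes reached. In all, 5 of the 8 genes were higher in isolate 1, 2 were higher in isolate 2 and 1 was equal, where over all 9155 genes 3173 were higher in isolate 1 and 4706 in isolate 2. With 1 array per isolate these gaps have no error of their own.

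**Figure D2:**
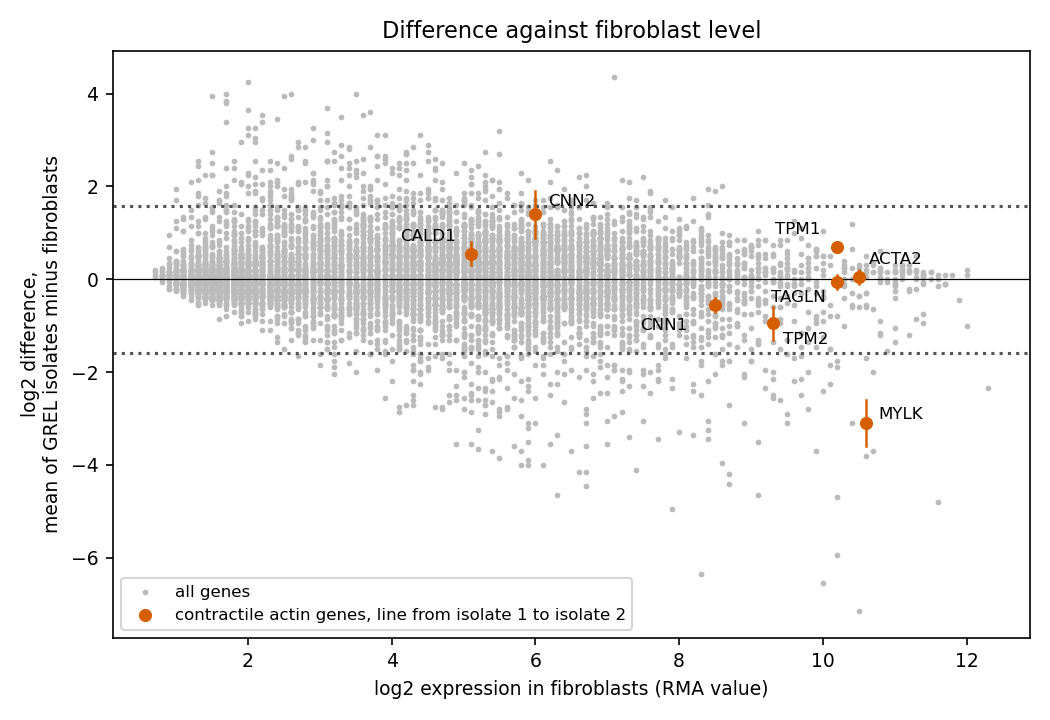
Log2 difference, GREL mean minus fibroblasts (vertical axis), against the log2 value in the fibroblasts (horizontal axis) for 9155 genes (grey) and the 8 contractile actin genes (orange, with a line from the value of one isolate to that of the other). Dotted lines mark a 3-fold difference, and both axes share the fibroblast value. MYLK, at -3.1, lies alone among the 8 beyond the lower line, and ACTA2 and TAGLN lie at 0.05 and -0.05.

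The members were next set beside their paralogues, the genes of the same families that are used more widely outside smooth muscle or in striated muscle. Of 14 paralogues on the list 12 were measured, and of these 11 were higher in both GREL isolates and 0 were lower in both, with a median difference of 0.50 (10 higher and a median of 0.45 with arrays centred on their medians). Over all genes 41.6% were higher in both and 33.5% lower in both, with a median of 0.05. Over 3-fold, 1 was higher in both isolates and 0 were lower, against 2.38% of all genes in each direction. None passed an adjusted p under 0.05 in limma. All measured paralogues are described here, which goes beyond the rule for named genes.

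Among the actins, the cytoplasmic ACTB and ACTG1 were each at 11.3 in fibroblasts against 11.8 in either isolate. A second probe set of ACTG1 was at 10.6 in fibroblasts against 10.9 and 10.7 in GREL isolates 1 and 2. ACTA1, the skeletal muscle actin, was dim in all 3 cultures, between 2.7 and 3.2. ACTC1, the alpha-actin of heart muscle, which is also made early in the development of skeletal muscle, was at 3.7 in the fibroblasts, 6.5 in isolate 1 and 8.1 in isolate 2. This was 6.96-fold and 21.1-fold higher, with a mean log2 difference of 3.6 (with standard error 1.11, 95% interval -2.83 to 10.03, adjusted p = 0.298 in limma), and ACTC1 ranked 12 of 9155 genes among those higher in GREL cells. The isolates were 1.6 apart in ACTC1, in the opposite order to MYLK, and only isolate 2 was near the level of the genes of other organs (8.1 against 8.12). The fibroblast value of 3.7 was also below the 90th percentile of those genes, at 5.8, so the size of the fold is uncertain. Actins are nearly identical in their coding parts, and whether these probe sets read more than 1 actin was not tested.

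TPM3 was at 9.3 in fibroblasts against 9.7 and 9.9 in GREL isolates 1 and 2, and TPM4 was at 10.1 against 10.6 in either. A second probe set of TPM3 was at 8.2, 8.8 and 9.2 in the same order, so TPM2 was the only measured tropomyosin that was lower in the isolates. CNN3 was at 9.4 in the fibroblasts, 9.6 in isolate 1 and 9.4 in isolate 2. TAGLN2, the transgelin of non-muscle cells, was at 9.1 in fibroblasts against 9.8 and 10.1 in GREL isolates 1 and 2 (mean difference 0.85, adjusted p = 0.286 in limma), and the neuronal TAGLN3 was below 4 in all cultures. MYL12A, a regulatory light chain of non-muscle myosin, was at 10.4 in fibroblasts against 10.7 and 10.6 in GREL isolates 1 and 2. MYLK2, the kinase of skeletal muscle, was at 2.6 in fibroblasts against 2.7 in either isolate, and MYL6B, an essential light chain, was at 1.6, 1.9 and 2.1 in the same order. MYLK2, MYL6B, ACTA1 and TAGLN3 were so dim that a lower value could hardly have been seen.

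**Figure D3:**
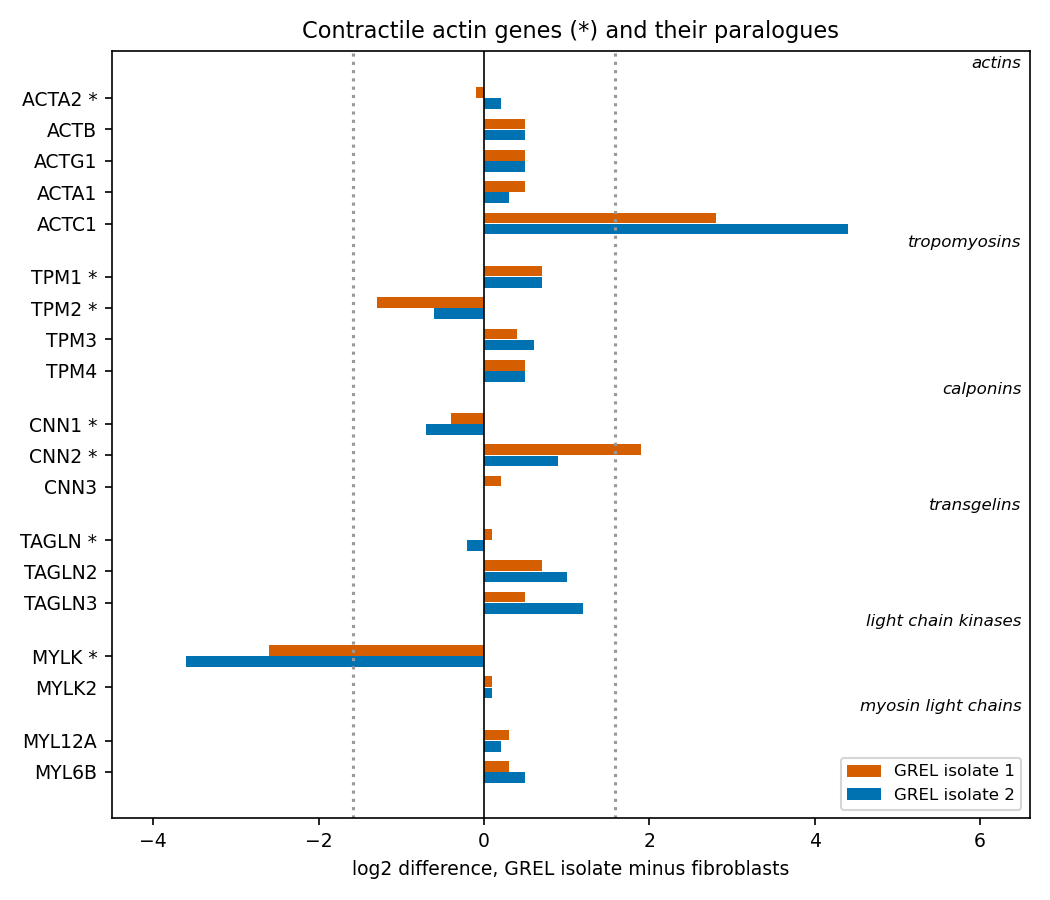
Log2 difference from the fibroblasts (horizontal axis) of GREL isolate 1 (orange) and GREL isolate 2 (blue) for the contractile actin genes (asterisks) and their 12 measured paralogues, by family, without CALD1, which has no paralogue here. Dotted lines mark a 3-fold difference. The bars of MYLK point left, to -2.6 and -3.6, and those of ACTC1 right, to 2.8 and 4.4.

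The transcripts of other proteins that set the phosphorylation of the light chain differed by less than MYLK did. Of 21 genes of myosin II and light chain control 12 were measured, 3 of them higher in both GREL isolates and 3 lower in both, with a median difference of 0.025 (-0.025 with arrays centred) and 0 over 3-fold in either direction. The shares over all genes were 41.6% higher in both and 33.5% lower in both, with 2.38% over 3-fold in each direction. PPP1CB, the catalytic subunit of myosin phosphatase, was at 7.7 in fibroblasts against 8.4 in either isolate, a difference of 0.70 (adjusted p = 0.182 in limma, its isolates being equal after rounding), and its other 2 probe sets were higher in both isolates by 0.5 to 0.8. PPP1CA, another phosphatase catalytic subunit, was at 7.4 in fibroblasts against 7.8 and 8.1 in GREL isolates 1 and 2. The lowest of the list were a pair of small GTPases. RHOC was at 6.8 in fibroblasts against 5.8 and 6.2 in GREL isolates 1 and 2, and RHOB was at 8.7 against 8.2 in either isolate, although 1 of the 2 dimmer probe sets of RHOB was 0.5 higher in both. In limma 0 genes of this list had an adjusted p under 0.05.

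Of 27 genes that link stress fibres to each other and to cell adhesions 19 were measured, 10 higher in both isolates and 7 lower in both, with a median difference of 0.15 (6 higher and a median of 0.10 with arrays centred). Over 3-fold, 1 was higher and 1 was lower. The shares over all genes were 41.6% higher in both and 33.5% lower in both, with 2.38% over 3-fold in each direction. PDLIM1, an adaptor that binds alpha-actinin, was at 7.3 in fibroblasts against 9.0 and 9.8 in GREL isolates 1 and 2 (log2 difference 2.1 with a standard error of 0.56, limma adjusted p = 0.286). The related PDLIM7 was at 5.8 and at 6.8 and 6.9, with 1 of its 2 other probe sets higher in both isolates. Talin 1 (TLN1), which couples integrins to actin, was at 8.1 in fibroblasts against 6.5 and 6.3 in GREL isolates 1 and 2 (log2 difference -1.7 with a standard error of 0.14, limma adjusted p = 0.184), and its second probe set was 0.2 and 0.6 lower. Palladin (PALLD), a scaffold of dense bodies, was at 9.3 in fibroblasts against 8.8 and 8.6 in GREL isolates 1 and 2. Here too 0 genes passed in limma.

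Of 18 genes of the SRF pathway and of TGF-beta signalling, which induces contractile genes in stromal cells, 8 were measured, 4 higher in both isolates and 3 lower in both. The shares over all genes were 41.6% and 33.5%. SRF is named for its role, outside the rule. It was at 3.0 in fibroblasts against 3.1 and 2.8 in GREL isolates 1 and 2, far below the level of the genes of other organs, and myocardin was not analysed here. KLF4, a repressor of smooth muscle genes, was at 5.4 in fibroblasts against 3.8 and 3.7 in GREL isolates 1 and 2 (difference -1.65, adjusted p = 0.182 in limma). KLF5, another factor of this family, ran the other way, at 4.8 in fibroblasts against 6.3 and 6.8 in GREL isolates 1 and 2 (difference 1.75, adjusted p = 0.261 in limma), and its second probe set was 1.9 and 1.7 higher. The receptor TGFBR2 was at 7.1 in fibroblasts against 6.0 and 5.8 in GREL isolates 1 and 2, but its dimmer probe set was 0.1 higher in both. SMAD3, a transducer of TGF-beta signals, was at 4.2 and at 5.3 and 5.1. None of the 8 genes was above the level of the genes of other organs in any culture, and 0 passed the adjusted p of limma.

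**Figure D4:**
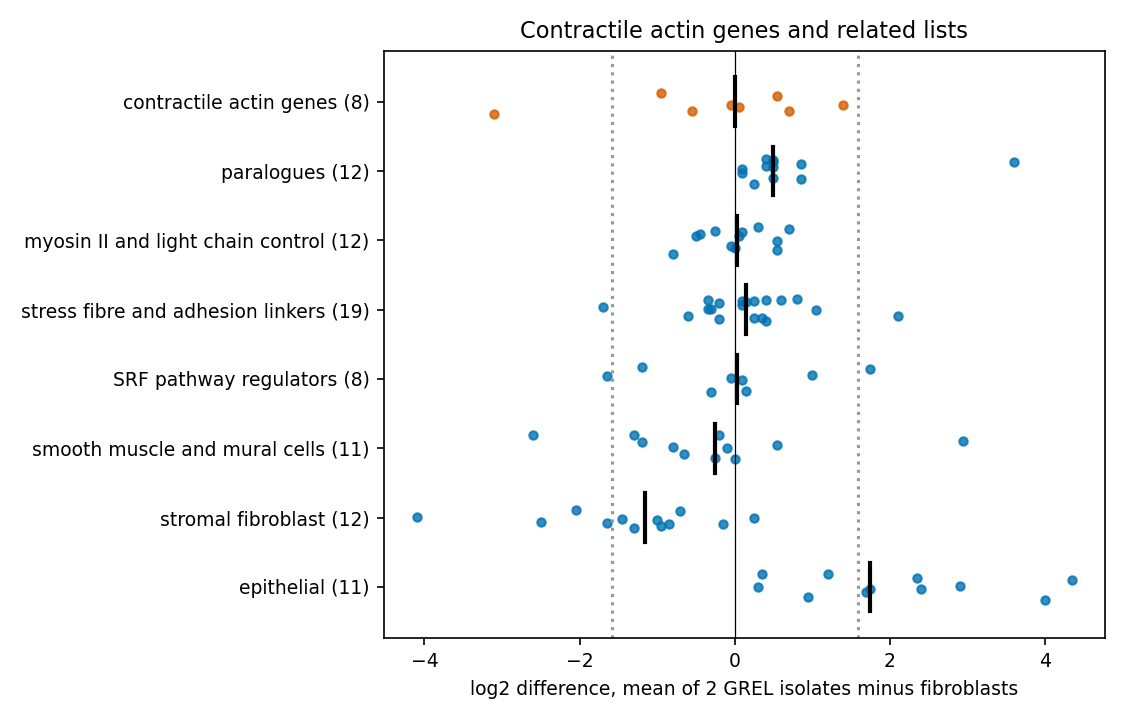
Log2 difference, GREL mean minus fibroblasts, on the horizontal axis, for every measured gene (points, spread vertically for sight) of 8 lists (number measured in brackets, median as a black bar). Dotted lines mark a 3-fold difference. The median is 0.00 for the contractile actin genes, 0.50 for their paralogues, -1.15 for the genes of stromal fibroblasts and 1.75 for the epithelial genes.

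Since contractile genes are shared with smooth muscle and with the mural cells of vessels, the markers of these cells were read beside them. Of 17 such markers 11 were measured, 2 higher in both isolates and 7 lower in both, with a median difference of -0.25. Over all genes 41.6% were higher in both and 33.5% lower in both. Only 1 of the 11, DES, exceeded the level of the genes of other organs in any culture, so small differences of the others are uncertain. Their summed level on the linear scale was 866 in the fibroblasts, 458 in GREL isolate 1 and 427 in isolate 2. DES, the intermediate filament of muscle, made up most of it, at 9.5 in fibroblasts against 8.3 and 8.1 in GREL isolates 1 and 2 (difference -1.3, adjusted p = 0.200 in limma). MYH11, the heavy chain that defines smooth muscle and is named for that, was at 1.7 in fibroblasts against 1.3 and 1.9 in GREL isolates 1 and 2, no higher than the middle of the genes of other organs. HSPB6, a small heat shock protein of muscle, was at 4.3 in fibroblasts against 1.7 in either isolate, and MCAM, an adhesion molecule of mural cells and endothelium, was at 3.1 and at 6.0 and 6.1. RGS5, a marker of pericytes, was at 2.0 in fibroblasts against 2.1 and 3.0 in GREL isolates 1 and 2. The part of smooth muscle or mural cells in the differences of MYLK, TPM2 and CNN1 was not tested.

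The order of MYLK, highest in the fibroblasts, lower in GREL isolate 1 and lowest in isolate 2, was also that of the summed level of the 12 genes of stromal fibroblasts, at 12058, 7637 and 4357. COL1A2, DCN and COL3A1 made up most of this sum. Of these 12 genes 11 were higher in isolate 1 than in isolate 2. Among all 9155 genes 3173 were higher in isolate 1 and 4706 in isolate 2. CNN1 had the same order as MYLK, whereas TPM2 was lowest in isolate 1, and CNN2, TPM1 and CALD1 were lowest in the fibroblasts. Among the stromal markers, TCF21 was at 7.4 in fibroblasts against 3.4 and 3.2 in GREL isolates 1 and 2, and PDGFRA at 8.3 and at 6.1 and 5.5. THY1 was at 4.3 in fibroblasts against 4.9 and 3.4, and POSTN at 4.9 against 4.5 and 5.8, so neither had the order of MYLK. The summed level of the 11 epithelial genes ran the other way, at 1833, 6433 and 7929, and KRT19 and KRT18 made up most of it. Gene by gene, 4 of the 11 were higher in isolate 1, 6 were higher in isolate 2 and 1 was equal. Between the isolates, CNN2 and CALD1 were higher in isolate 1 and TPM1 was equal, whereas the epithelial sum was higher in isolate 2. The part of stromal cells in the differences of MYLK and CNN1, and of epithelial cells in those of CNN2, TPM1 and CALD1, was not tested. Markers of endothelium (8 measured), blood cells (7), granulosa cells (8) and germ cells (3) lay below the level of the genes of other organs in every culture, as MYLK did in both isolates. Of these markers KIT, a receptor of germ cells and other cell types, was at 5.7 in fibroblasts against 1.5 and 2.7 in GREL isolates 1 and 2, EMCN of endothelium was at 4.7 against 3.1 and 2.9, and INHBA of granulosa cells was at 6.4, 7.3 and 6.5 in the same order, above the 90th percentile level in all 3 cultures. These 3 genes were chosen after their values were seen. Whether the cells they mark had a part in the difference of MYLK was not tested.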

How the data were processed

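The authors processed the arrays by RMA background subtraction, quantile normalization and log2 transformation (Partek 6.5 in the submitters' processing notes), and deposited log2 values rounded to 0.1. All 3 columns were used and 0 were left out. Of 24128 probe sets, 112 array controls were omitted. Platform annotation gave 13292 probe sets 1 symbol and 86 several, and 10638 were unnamed. Gene identifiers of 13263 named probe sets were found in a current RefSeq table (0 symbols changed). Coordinates are omitted, since a genome build was not given in the sources used here. GREL cells and fibroblasts were compared in R 4.3.3 with limma 3.58.1 (lmFit, eBayes, Benjamini-Hochberg adjustment over all probe sets), tested first on simulated data, and tables were made in Python 3.11.15 with pandas 2.3.3. Identical rounded isolates (3513 probe sets) give standard errors that are too small. Array number limits the precision. Alternatives were the ANOVA of the methods, a robust prior, an intensity trend, removal of dim probe sets, renormalization, median centring, averaged probe sets, other folds, a lower percentile and leaving out either isolate. The members and gene lists were chosen with earlier results of these data known. Named were all members and up to 2 highest and 2 lowest genes of each related list.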

Additional observations from a re-analysis of the deposited data

How the results depend on the processing

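With a robust prior limma called 1189 probe sets, and 1 of the 8 genes (TPM1), in place of 0. The other 5 forms of the fit called 0 of either, but the ANOVA among them could not test TPM1, whose isolates were identical after rounding. Leaving out either isolate gave 0 to 1 genes over 3-fold higher (CNN2, at 3.73-fold, when isolate 2 is left out) and 1 lower throughout. The same ranges were -0.1 to 0.2 for the difference of ACTA2 and -0.2 to 0.1 for that of TAGLN, so neither has a direction. The median difference of the 8 genes was 0.025 after quantile normalization was applied again, -0.05 with arrays centred on their medians and 0.05 without MYLK (added once the values were known). For the genes of other organs, the 90th percentile was 5.8, 6.2 and 6.48 in the fibroblasts and isolates 1 and 2, and above it MYLK was measured in all 3 cultures at its first probe set. No paired analysis was possible because the single fibroblast culture came from an adult ovary and the isolates from fetuses, with no pairing named. Faint probe sets limit CALD1 and CNN2.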
